A study of Homo sapiens with 4 samples.

Results

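Complex I (NADH:ubiquinone oxidoreductase) genes were compared between THP-1 cells given a scrambled short hairpin RNA (shRNA) and THP-1 cells given an shRNA against PIWIL4. The members were all genes whose name starts with NDUF, with 3 antisense names and 1 pseudogene name left out, which gave 47 of the 25680 genes in each table. Of these, 37 encode subunits of the complex, 7 encode assembly factors, and 3 carry the prefix for other reasons: NDUFA4, now known as a subunit of cytochrome c oxidase, its paralog NDUFA4L2, and the readthrough transcript NDUFC2-KCTD14. All 47 passed the filter on low counts.

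THP-1 is an established human monocytic leukaemia line, and PIWIL4 encodes an Argonaute protein of the PIWI family. The Scrambled group (n = 2 libraries) was made from cells transduced with the lentivirus PGP-Scrambled and the shPIWIL4 group (n = 2 libraries) from cells transduced with PGP-shPIWIL4. In both groups the cells were grown in RPMI with serum and antibiotics, sorted by flow cytometry 48 hours after transduction, and used for RNA-seq of total RNA. The study compared the groups to see how gene expression differs in acute myeloid leukaemia cells when PIWIL4 is knocked down. Only 1 cell line and 1 shRNA against PIWIL4 were used in these libraries, so lower PIWIL4 and any other action of that shRNA cannot be told apart. The titles mark the libraries of each group with "exp. rep" and a number, but no label says whether they came from separate cultures. The p-values therefore measure only how far these samples spread, and that spread may be technical.

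Complex I is the entry point for electrons from NADH into the mitochondrial respiratory chain. It is an L-shaped assembly with a matrix arm, where NADH is oxidised and electrons pass along iron-sulfur clusters to ubiquinone, and a membrane arm, which pumps protons across the inner membrane. Its core subunits are conserved from bacteria and are encoded partly in the nucleus and partly in mitochondrial DNA, accessory subunits surround them, and assembly factors help to build the complex without staying in it. The mitochondrially encoded subunits are not analysed here.

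Total counts were 31458079 to 53657246 per library. Levels are given as CPM, the count relative to the total of the library, adjusted by its TMM factor. PIWIL4 itself was at 38.5 and 37.2 CPM in Scrambled and 17.8 and 17.4 CPM in shPIWIL4, a fall of 1.10 (log2 scale, SE 0.092, edgeR adjusted p = 1.3e-05). All 10 monocytic markers checked were tested and were above 0 in every library, with a summed level of 1069 and 1111 CPM in Scrambled and 2920.5 and 2793 CPM in shPIWIL4. Most of that difference was LYZ, at 143 and 151 CPM in Scrambled and 1803 and 1817 CPM in shPIWIL4. Of the 10, 3 rose and 2 fell, and their median log2 fold change was 0.034. For comparison with both marker lists, 28.7% of all genes tested were called higher and 29.1% lower. Of 15 markers of T, B, erythroid, epithelial and fibroblast cells, 4 passed the filter (CD79A, KRT8 and COL1A1 among them), all 4 of them fell, and CD3E, CD2 and COL1A2 were at 0 in all libraries. The summed level of these 15 was 9.60 and 9.85 CPM in Scrambled and 2.53 and 3.24 CPM in shPIWIL4, and the part of either marker list in the results was not tested.

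Nearly all complex I genes were higher in the shPIWIL4 libraries, by moderate amounts. Of the 47 members, 43 rose, 2 fell (NDUFAF7 and NDUFA4L2) and 2 were not called (NDUFA5 and NDUFA7), where a call is an adjusted p under 0.05 in edgeR's quasi-likelihood test over 16108 genes. Among all genes tested, 57.7% were called, 28.7% as higher and 29.1% as lower, so 91.5% of the members stand beside 28.7% of all genes. The median log2 fold change of the members was 0.67, beside -0.0034 for all genes tested, and the middle 50% of the members lay between 0.43 and 0.90. A rise of at least 2-fold was called for 6 members, NDUFB9, NDUFS6, NDUFB10, NDUFA6, NDUFS8 and NDUFAB1, which is 12.8% of them against 4.79% of all genes tested.

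In each of the 47 genes the libraries of the 2 groups did not overlap, with 45 higher and 2 lower in shPIWIL4. Non-overlap was frequent in general, since it was found for 78.6% of all genes tested, and 39.1% were non-overlapping and higher in shPIWIL4. As a share of the total count, the 47 genes made up 0.253% and 0.247% in Scrambled and 0.376% and 0.381% in shPIWIL4. In bulk libraries, more transcript per cell and more cells that carry the transcript cannot be told apart. The scaling (TMM) sets 0 near the middle of the tested genes, and each direction is relative to it. Upper-quartile factors moved the median of all genes to -0.12 and their calls from 4618 higher and 4683 lower to 3446 higher and 5717 lower, and 34 members were then higher and 2 lower.

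**Figure D1:**
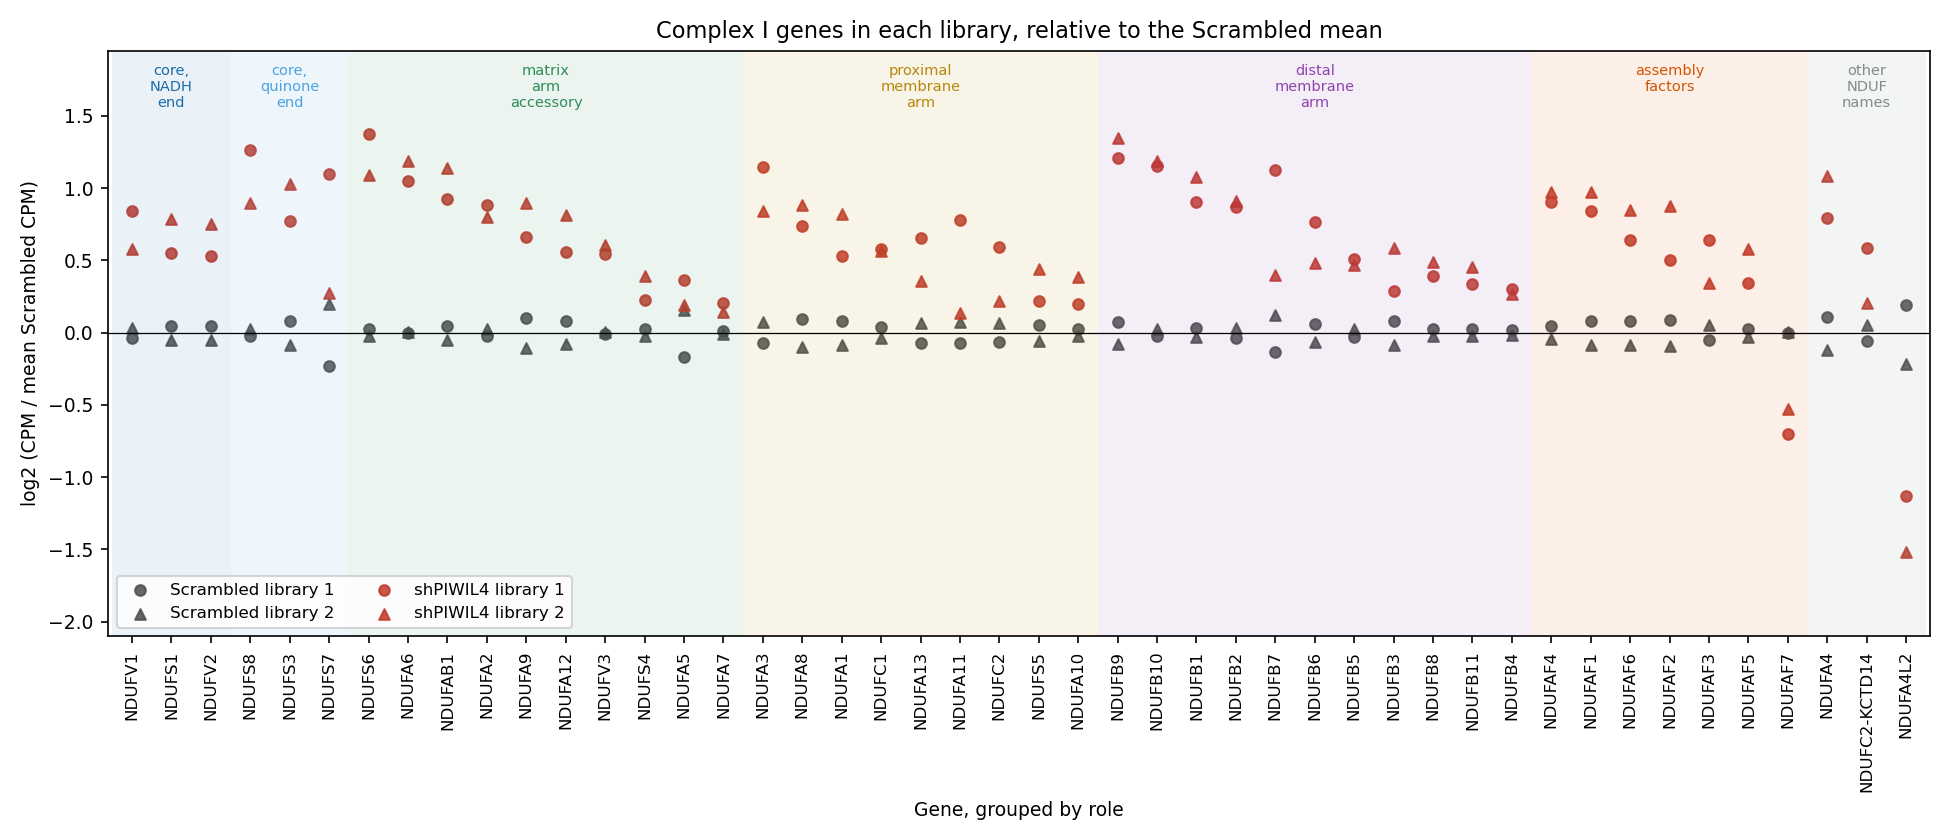
Level of 46 of the genes in each library as log2 of CPM over the mean CPM of the Scrambled libraries (vertical axis), with genes grouped by role along the horizontal axis. Grey points are Scrambled and red points shPIWIL4 libraries, circles library 1 and triangles library 2; the red points lie above the grey ones in 44 genes and below them in NDUFAF7 and NDUFA4L2.

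Among the 7 nuclear core subunits all were called higher, with a median log2 fold change of 0.72. This count and those of the role groups below stand beside 28.7% of all genes tested called higher and 29.1% called lower. The NADH-oxidising end of the matrix arm changed evenly. NDUFV1, which holds the flavin and the NADH site, was at 92.6 and 97.2 CPM in Scrambled and 170.3 and 142 CPM in shPIWIL4. Its rise was 0.72 (log2 scale, SE 0.10, edgeR adjusted p = 2.7e-04). NDUFV2, which carries an iron-sulfur cluster, was at 79.1 and 73.9 CPM in Scrambled and 110.5 and 129 CPM in shPIWIL4, and NDUFS1, a large iron-sulfur subunit, at 119.6 and 112 CPM in Scrambled and 169.8 and 199 CPM in shPIWIL4. They rose by 0.65 (SE 0.096) and 0.67 (SE 0.097), so the 3 subunits of this end differed by less than their standard errors.

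The quinone-reducing end was less even. NDUFS8, an iron-sulfur subunit next to the quinone site, was at 13.1 and 13.6 CPM in Scrambled and 32.1 and 24.8 CPM in shPIWIL4, and rose by 1.09 (SE 0.13), or 2.13-fold (edgeR adjusted p = 1.1e-04). NDUFS3, a core subunit without a cluster, was at 72.6 and 64.4 CPM in Scrambled and 117 and 139 CPM in shPIWIL4 and rose by 0.91 (SE 0.11). NDUFS7, the subunit with the last cluster of the chain, was at 12.1 and 16.3 CPM in Scrambled and 30.3 and 17.1 CPM in shPIWIL4, so that shPIWIL4 library 2 lay just above Scrambled library 2. Its rise of 0.73 (SE 0.24, edgeR adjusted p = 0.024) was 0.26 without shPIWIL4 library 1 and 1.08 without shPIWIL4 library 2. DESeq2 gave NDUFS7 an adjusted p of 0.16.

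Of the 10 accessory subunits of the matrix arm, 8 rose, 0 fell and 2 were not called, with a median log2 fold change of 0.74. The highest rise was in NDUFS6, a zinc-binding subunit that is added late in assembly. Its level was 29.5 and 28.5 CPM in Scrambled and 75.2 and 61.7 CPM in shPIWIL4, from 936 and 1506 counts against 3811 and 3205, and it rose by 1.24 (SE 0.11), or 2.36-fold (edgeR adjusted p = 1.7e-05). NDUFA6, a protein of the LYR family that anchors an acyl carrier protein on the matrix arm, was at 34.5 and 34.6 CPM in Scrambled and 71.6 and 78.8 CPM in shPIWIL4. NDUFAB1, which encodes that acyl carrier protein and also serves mitochondrial fatty acid synthesis, was at 47.4 and 44.2 CPM in Scrambled and 87.1 and 101 CPM in shPIWIL4. These binding partners rose by 1.12 (SE 0.088) and 1.04 (SE 0.097), and in both genes the higher shPIWIL4 library was library 2.

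Intermediate rises in the matrix arm were those of NDUFA2, a thioredoxin-like subunit (log2 fold change 0.84, SE 0.088), NDUFA9, a dehydrogenase-like subunit near the quinone site (0.79, SE 0.11), NDUFA12 (0.69, SE 0.11) and NDUFV3 (0.58, SE 0.084). NDUFS4, a subunit often mutated in inherited complex I deficiency, was at 34.7 and 33.6 CPM in Scrambled and 39.9 and 44.9 CPM in shPIWIL4 and rose by 0.31 (SE 0.095, edgeR adjusted p = 0.018). NDUFA5 was at 27.5 and 34.5 CPM in Scrambled and 39.9 and 35.3 CPM in shPIWIL4, a log2 fold change of 0.27 (SE 0.12) with an edgeR adjusted p of 0.079. Its unadjusted 95% interval was 0.04 to 0.51, and it was called higher without Scrambled library 2 (0.46) or without shPIWIL4 library 2 (0.36). NDUFA7 was at 21.4 and 21.1 CPM in Scrambled and 24.5 and 23.5 CPM in shPIWIL4, the smallest difference of the 47 members (0.18, SE 0.094, edgeR adjusted p = 0.14, 95% interval -0.00931 to 0.36). The upper bound for NDUFA7 lies below the median of the members.

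The proximal membrane arm, next to the matrix arm, had 9 accessory subunits, and all 9 rose, with a median log2 fold change of 0.51. NDUFA3, a small membrane subunit, had the highest rise of them. Its level was 26.8 and 29.6 CPM in Scrambled and 62.5 and 50.4 CPM in shPIWIL4, a log2 fold change of 1.00 (SE 0.12, edgeR adjusted p = 9.2e-05). NDUFA8, a cysteine-rich subunit on the intermembrane side, was at 22.4 and 19.6 CPM in Scrambled and 35.0 and 38.7 CPM in shPIWIL4 (0.82, SE 0.11), and NDUFA1, a short single-pass membrane protein, at 92.0 and 81.8 CPM in Scrambled and 126 and 154 CPM in shPIWIL4 (0.69, SE 0.11). NDUFC1 rose by 0.57 (SE 0.088) and NDUFA13, also known as GRIM-19, by 0.51 (SE 0.11). With the length offset, NDUFA1 rose by 0.43, and NDUFA13 was at 0.27 and no longer called (edgeR adjusted p = 0.056).

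At the lower end of this group stood NDUFA10, a subunit related to nucleoside kinases, at 97.8 and 94.7 CPM in Scrambled and 111 and 126 CPM in shPIWIL4 (0.29, SE 0.089, edgeR adjusted p = 0.018). NDUFS5, a cysteine-rich intermembrane-side subunit, was close to it, at 121 and 113 CPM in Scrambled and 136 and 159 CPM in shPIWIL4 (0.33, SE 0.096), and with the length offset its value was 0.11, no longer called. The membrane protein NDUFA11 was at 34.6 and 38.2 CPM in Scrambled and 62.6 and 40.0 CPM in shPIWIL4, so only shPIWIL4 library 1 stood well apart. Its rise of 0.49 (SE 0.17, edgeR adjusted p = 0.035) was 0.14 without that library, with an edgeR adjusted p of 0.19, and 0.78 without shPIWIL4 library 2. NDUFC2 was at 39.8 and 43.6 CPM in Scrambled and 62.9 and 48.4 CPM in shPIWIL4 and rose by 0.42 (SE 0.12), or by 0.22 without shPIWIL4 library 1. The readthrough gene NDUFC2-KCTD14 had 88.3% to 89.8% of the NDUFC2 count in every library and rose by 0.41 (SE 0.12), or by 0.21 without shPIWIL4 library 1, while KCTD14 itself had 28 to 68 counts. A readthrough gene shares exons with its parent gene, so this pair is not read as separate measurements.

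The distal membrane arm, the far end of the proton-pumping part, had 11 accessory subunits, and all 11 rose, with a median log2 fold change of 0.63. The largest rise of the 47 members was here, in NDUFB9, a LYR protein that holds the acyl carrier protein on the membrane arm. It was at 75.8 and 68.3 CPM in Scrambled and 167 and 184 CPM in shPIWIL4, from 2409 and 3607 counts against 8455 and 9539, and rose by 1.28 (SE 0.092), or 2.43-fold (edgeR adjusted p = 5.6e-06). Both LYR subunits and NDUFAB1 were thus among the 6 members that rose at least 2-fold. NDUFB10, a subunit held by disulfide bonds, was at 41.8 and 43.3 CPM in Scrambled and 94.8 and 96.9 CPM in shPIWIL4 and rose by 1.17 (SE 0.081, edgeR adjusted p = 4.7e-06). Its shPIWIL4 libraries were the closest pair of the 6 genes that rose at least 2-fold, and its means were 42.6 ± 1.1 and 95.8 ± 1.5 CPM (SD, n = 2 each).

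NDUFB1 and NDUFB2 rose by 0.99 (SE 0.095) and 0.89 (SE 0.085). NDUFB7, a cysteine-rich subunit of the intermembrane side, was at 16.7 and 20.0 CPM in Scrambled and 40.0 and 24.3 CPM in shPIWIL4, which is a wide spread between the shPIWIL4 libraries. Its log2 fold change of 0.80 (SE 0.20) was 0.40 without shPIWIL4 library 1 and 1.12 without library 2, and DESeq2 gave an adjusted p of 0.061 for it. NDUFB6, NDUFB5, NDUFB3, NDUFB8 and NDUFB11 rose by 0.63, 0.49, 0.45, 0.44 and 0.39. NDUFB4, the lowest of this group, was at 77.4 and 75.7 CPM in Scrambled and 94.5 and 92.4 CPM in shPIWIL4 (0.29, SE 0.078, edgeR adjusted p = 0.011). The distal arm therefore held both the largest rise of the complex and some of the smallest, and differences between arms were not tested, since genes are not replicates.

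**Figure D2:**
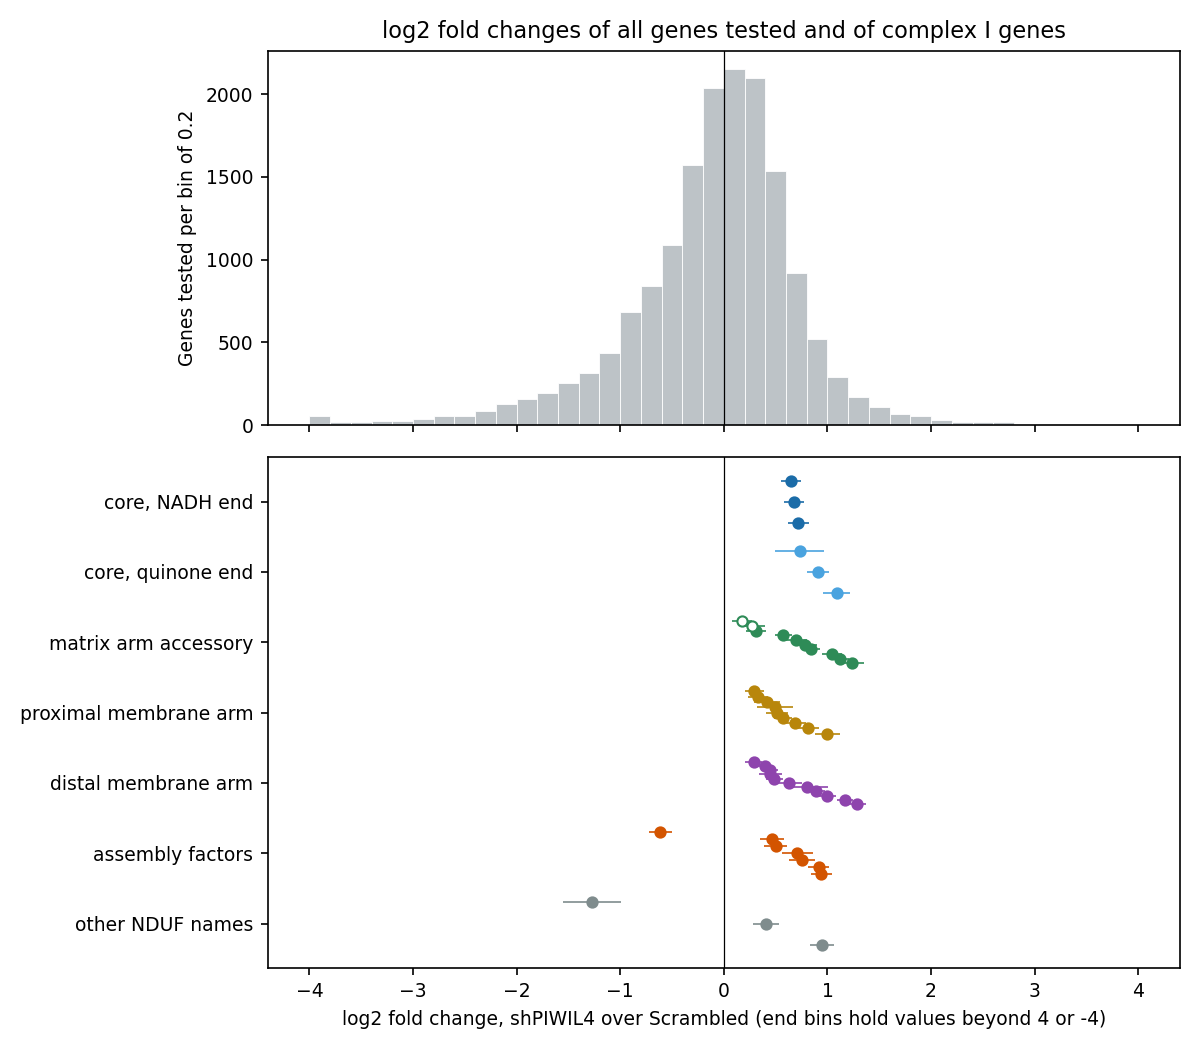
Upper panel: number of all 16108 genes tested per bin of log2 fold change (shPIWIL4 over Scrambled). Lower panel: 46 complex I genes by role on the same axis, with bars of 1 standard error and open circles for the 2 genes not called; the points gather between 0.18 and 1.28, apart from NDUFAF7 at -0.61 and NDUFA4L2 at -1.27.

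Assembly factors moved in the same direction as the subunits, with 1 exception. Of the 7 with an NDUF name, 6 rose and 1 fell, with a median log2 fold change of 0.71. NDUFAF4, which acts on the quinone-side module, was at 15.8 and 14.9 CPM in Scrambled and 28.8 and 30.2 CPM in shPIWIL4 and rose by 0.94 (SE 0.098, edgeR adjusted p = 4.5e-05). NDUFAF1, which helps to assemble the membrane arm, was at 20.7 and 18.4 CPM in Scrambled and 35.1 and 38.5 CPM in shPIWIL4 and rose by 0.91 (SE 0.10). NDUFAF6, NDUFAF2, NDUFAF3 and NDUFAF5 rose by 0.75 (SE 0.12), 0.71 (SE 0.15), 0.50 (SE 0.11) and 0.47 (SE 0.12). NDUFAF5, an enzyme that modifies NDUFS7, had the smallest rise of the 6, at 11.5 and 11.1 CPM in Scrambled and 14.3 and 16.9 CPM in shPIWIL4.

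NDUFAF7, a methyltransferase that acts early in assembly, went the other way. It was at 17.7 and 17.7 CPM in Scrambled and 10.9 and 12.3 CPM in shPIWIL4, from 562 and 936 counts against 553 and 637. Both shPIWIL4 libraries were below both Scrambled libraries, a fall of 0.61 (log2 scale, SE 0.11, edgeR adjusted p = 1.0e-03). It fell by 0.52 to 0.69 when single libraries were left out, and it was called lower under each of the 14 alternative settings.

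Assembly factors outside the NDUF names were read from a list of 16 genes. Of these, 10 rose and 0 fell, with a median log2 fold change of 0.40. Among all genes tested, 28.7% were called higher and 29.1% lower. AIFM1, an oxidoreductase of the intermembrane space linked to import of cysteine-rich subunits, was at 48.4 and 44.5 CPM in Scrambled and 97.1 and 106 CPM in shPIWIL4 and rose by 1.13 (SE 0.089). FOXRED1, ACAD9 and ECSIT rose by 0.86 (SE 0.081), 0.66 (SE 0.079) and 0.88 (SE 0.13). ACAD9 and ECSIT act in a common assembly complex with NDUFAF1. C17orf89, the older name of NDUFAF8, rose by 0.72 (SE 0.10). The 6 not called were TMEM126B, NUBPL, COA1, TMEM261, ATP5SL and OXA1L. ATP5SL was the lowest of the list, at 42.7 and 44.5 CPM in Scrambled and 42.7 and 39.7 CPM in shPIWIL4 (-0.08, SE 0.088), and OXA1L, a general insertase of the inner membrane, was at 153 and 139.7 CPM in Scrambled and 134 and 151 CPM in shPIWIL4 (-0.04, SE 0.091).

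The paralogs NDUFA4 and NDUFA4L2 moved in opposite directions. NDUFA4, the cytochrome c oxidase subunit, was at 188 and 160.5 CPM in Scrambled and 302 and 369 CPM in shPIWIL4, from 5960 and 8472 counts against 15299 and 19200, and rose by 0.95 (SE 0.12, edgeR adjusted p = 1.3e-04). NDUFA4L2, known as a gene induced in hypoxia, had 36 and 45 counts against 23 and 18, which is 1.13 and 0.852 CPM in Scrambled and 0.454 and 0.346 CPM in shPIWIL4. It fell by 1.27 (SE 0.28, edgeR adjusted p = 0.0039), by 1.06 to 1.49 without single libraries, at a level where few reads set the size. Per length, the ratio of NDUFA4 to NDUFA4L2 in TPM was 95.6 and 109 in Scrambled and 384 and 616 in shPIWIL4. With 2 libraries in each group, this ratio is given as a description, with no test.

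**Figure D3:**
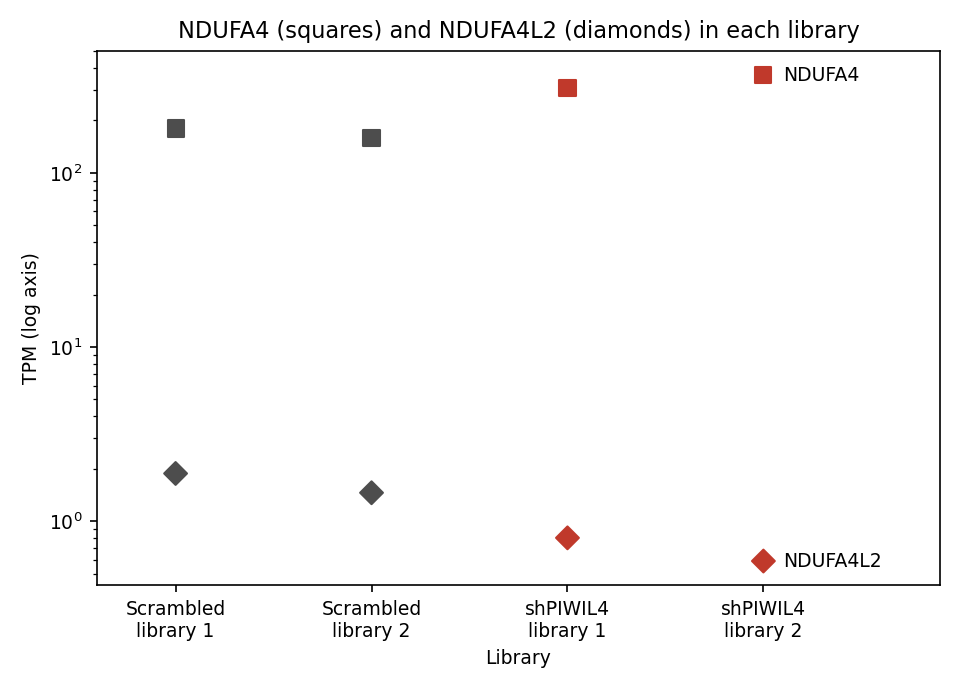
Level of NDUFA4 (squares) and NDUFA4L2 (diamonds) as deposited TPM on a log axis, in each Scrambled (grey) and shPIWIL4 (red) library. NDUFA4 is between 158 and 180 TPM in Scrambled and between 308 and 364 TPM in shPIWIL4, while NDUFA4L2 goes from 1.46 to 1.88 TPM down to 0.591 to 0.803 TPM.

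A list of 7 hypoxia-linked genes of the respiratory system, chosen to stand beside NDUFA4L2, moved both ways. Of its 6 tested members, 4 fell and 1 rose, with a median log2 fold change of -0.96. Among all genes tested, 29.1% were called lower and 28.7% higher. BNIP3, a mitophagy receptor, was at 238 and 235 CPM in Scrambled and 56.7 and 62.9 CPM in shPIWIL4 and fell by 1.98 (SE 0.088). PDK1, a kinase that keeps pyruvate out of the citric acid cycle, was at 80.0 and 81.2 CPM in Scrambled and 23.7 and 25.2 CPM in shPIWIL4 and fell by 1.72 (SE 0.086). BNIP3L and LDHA fell by 0.99 (SE 0.089) and 0.92 (SE 0.10). HIGD1A, a small inner-membrane protein, rose by 1.14 (SE 0.091), and the protease gene LONP1 was at 129 and 149 CPM in Scrambled and 157 and 119 CPM in shPIWIL4 (-0.0117, edgeR adjusted p = 0.95). COX4I2, a hypoxia-linked cytochrome oxidase subunit, had 0 counts in all 4 libraries.

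Levels per length were read from the deposited TPM values. Over the 37 subunits the median was 98.3 and 98.6 TPM in Scrambled and 146 and 135 TPM in shPIWIL4. In Scrambled the order was led by NDUFA13 (mean 451 TPM), NDUFS5 (410.0 TPM) and NDUFA1 (358 TPM), and NDUFB9 was at 200.5 TPM. Subunits that sit in the complex in equal number thus differed widely in transcript level. NDUFA5 was the lowest subunit at 9.55 TPM, with a gene length of 6506 bases in the files, so that its value per length rests on the long gene model. Apart from NDUFAF3 (54.5 TPM), the assembly factors with an NDUF name were between 8.46 and 22.6 TPM, below every subunit except NDUFA5. NDUFA11 was the next lowest subunit, at 24.8 TPM. The 16 assembly factors outside the NDUF names ranged more widely in Scrambled, from 3.86 TPM (NUBPL) to 170 TPM (OXA1L).

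The order changed little between groups at its ends. By group mean NDUFA13 stayed the highest (665 TPM in shPIWIL4), although in shPIWIL4 library 2 it was below NDUFA1 (586 against 641 TPM), and NDUFA4L2 stayed the lowest (0.697 TPM). NDUFB9 went from rank 5 to rank 4 with 503 TPM, and NDUFA6 from rank 27 to rank 20. The spread of the 37 subunits, as the SD of log2 TPM, was 1.22 and 1.16 in Scrambled and 1.21 and 1.32 in shPIWIL4, so these ranges overlapped. Over the 47 genes the log2 fold change had a Pearson correlation of -0.31 with log2 gene length (Spearman -0.38), beside -0.03 over all genes tested. With log2 Scrambled TPM the Pearson correlation over the 47 genes was 0.43 (Spearman 0.19). These are descriptions over genes that share 4 libraries.

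**Figure D4:**
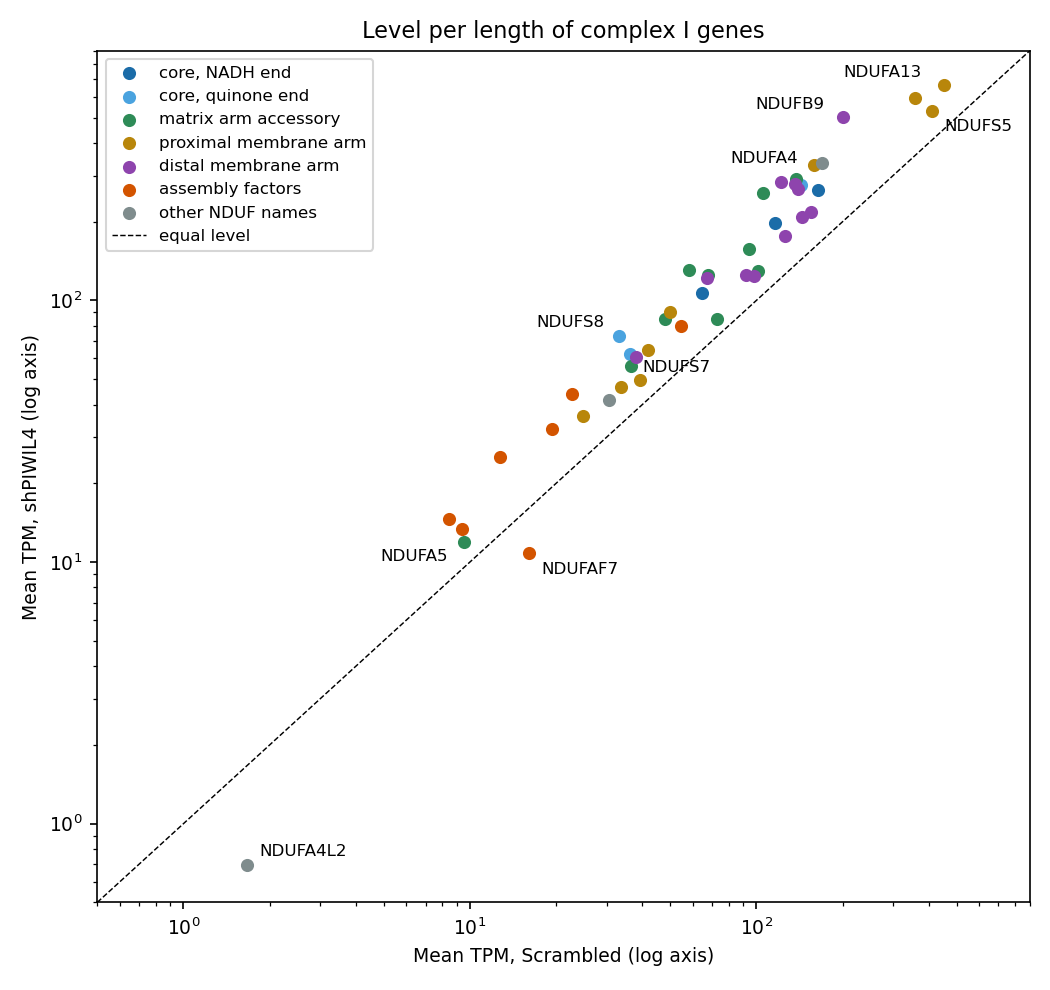
Mean deposited TPM of 46 complex I genes in shPIWIL4 (vertical, log axis) against Scrambled (horizontal, log axis), coloured by role, with a dashed line at equal level. Points lie above the line except NDUFAF7 (16.0 against 10.8 TPM) and NDUFA4L2.

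The differences between replicate libraries correlated with the base composition of the complex I genes, more strongly in shPIWIL4 than in Scrambled. GC content was taken as the mean over a gene's transcripts in GENCODE 29, and all 47 members had a value. Between the shPIWIL4 libraries, the log2 difference of library 1 minus library 2 had a Pearson correlation of 0.65 with GC over the 47 genes, and of 0.52 over 14821 genes tested. The largest such differences were in NDUFS7 (65.6% GC, 0.82), NDUFB7 (65.0% GC, 0.72) and NDUFA11 (62.0% GC, 0.64). The difference of Scrambled library 1 minus library 2 had a correlation of -0.35 over the members and -0.17 over 14821 genes tested. No label ties the library numbers across the groups, so the signs of the 2 groups cannot be compared. The fold change between the groups had a correlation of -0.04 with GC over the members and -0.14 over all genes tested. With an offset on gene length and GC content in each library, an alternative added after seeing the data, 40 members were higher and 2 lower, with a median of 0.53. What sets the difference between replicate libraries was not tested.

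**Figure D5:**
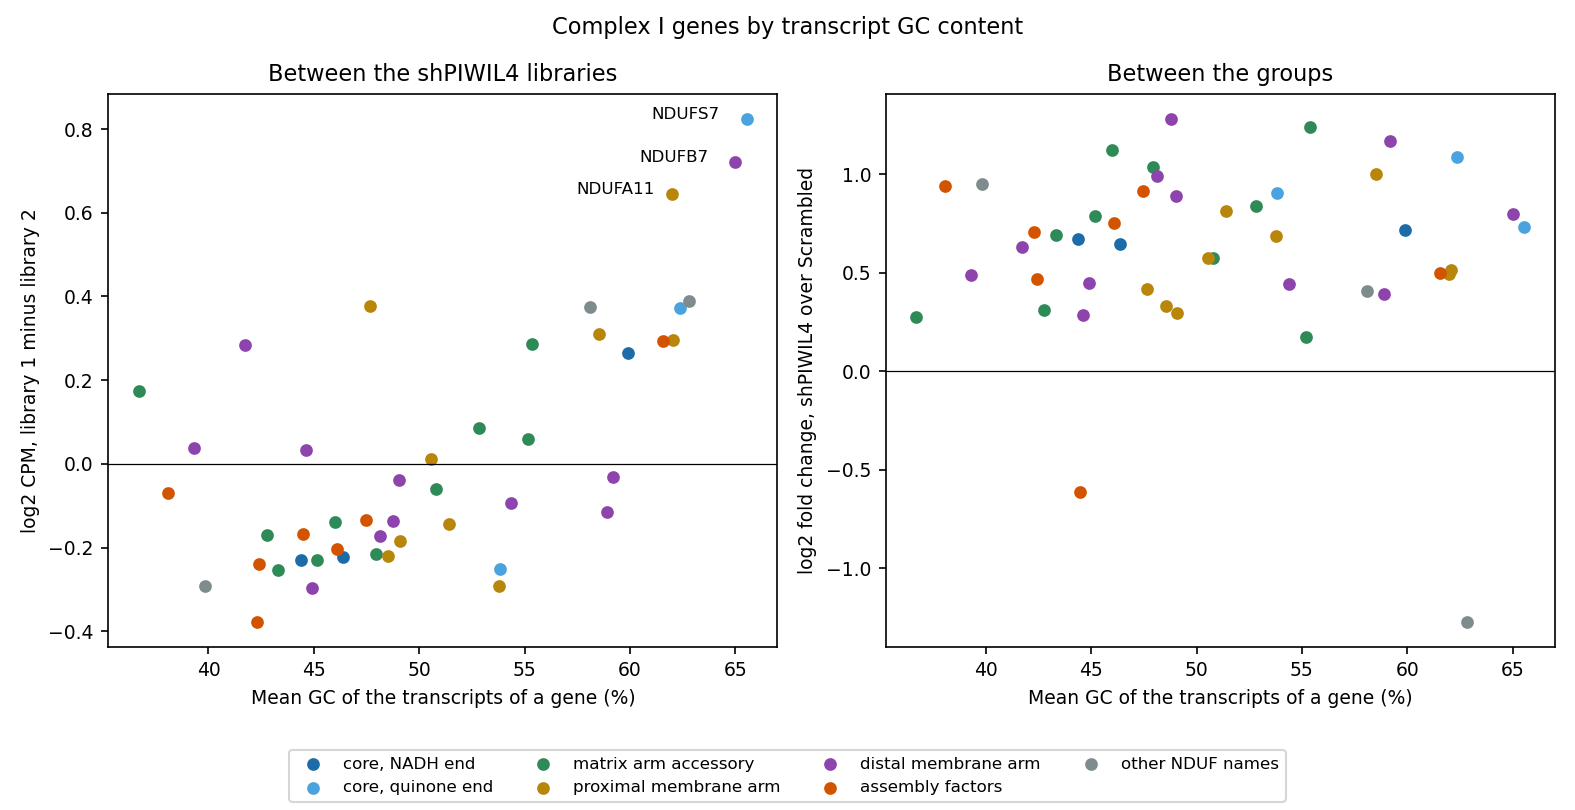
Left: log2 CPM of shPIWIL4 library 1 minus library 2 for 46 complex I genes against the mean GC content of each gene's transcripts in percent. Right: log2 fold change between groups against the same GC content; the left panel slopes upward to NDUFS7 at 0.82, while the right panel has no such slope.

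Genes of the other respiratory complexes were counted beside complex I. Of 43 tested genes of complexes II to V, 36 rose and 1 fell, and their median log2 fold change was 0.55. The 47 members had 43 higher and 2 lower and a median of 0.67, with NDUFA4, NDUFA4L2 and NDUFC2-KCTD14 among them. Of the 37 complex I subunits alone, 35 rose, 0 fell and 2 were not called, with a median of 0.67. Among all genes tested, 28.7% were called higher and 29.1% lower. No test of the difference was made, so nothing is called particular to complex I. Complex III had 8 of 9 higher (5 without Scrambled library 2), complex IV 9 of 10 and complex V 15 of 16, with medians of 0.54, 0.80 and 0.50. In complex II, 4 of 8 were higher and 1 lower, with a median of 0.23, and with upper-quartile factors these were 3, 2 and 0.10. This list includes the assembly factors SDHAF1, SDHAF2, ACN9 and C6orf57, while those of complexes III and IV hold subunits. Its median is therefore not a like measure. The catalytic and iron-sulfur subunits of complex II, SDHA and SDHB, rose by 0.73 (SE 0.082) and 0.95 (SE 0.10). The subunit gene SDHD rose by 0.67 (SE 0.082), and SDHC was not called (0.02, SE 0.093). The complex II assembly factor SDHAF4, listed under its older name C6orf57, was at 12.5 and 12.8 CPM in Scrambled and 5.92 and 6.64 CPM in shPIWIL4. It fell by 1.01 (SE 0.12). The largest rise of these 43 genes was in the cytochrome oxidase gene COX7C (1.57, SE 0.11), while COX7A2 (0.17, SE 0.12) and the ATP synthase gene ATP5G2 (-0.25, SE 0.10) were not called. ATP5G2 was close to the threshold (edgeR adjusted p = 0.056) and was called lower in 8 of the 14 alternatives, DESeq2 (0.048) and upper-quartile factors (0.011) among them. In those 8 the number called lower among the 43 was 2 or 3. Together the 43 genes held 0.660% and 0.614% of counts in Scrambled and 0.893% and 0.972% in shPIWIL4.

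Regulators of respiratory genes were mixed, and their calls stand beside 28.7% of all genes tested called higher and 29.1% called lower. Of 12, 5 rose and 1 fell, with a median log2 fold change of 0.30, and without shPIWIL4 library 2 the counts were 8 and 2; the median was 0.14 without shPIWIL4 library 1 and 0.18 with upper-quartile factors. The coactivator gene PPARGC1A was at 2.68 and 2.65 CPM in Scrambled and 7.12 and 8.45 CPM in shPIWIL4 and rose by 1.55 (SE 0.15, edgeR adjusted p = 2.6e-05). Its relative PPARGC1B was at 20.6 and 20.5 CPM in Scrambled and 47.6 and 49.7 CPM in shPIWIL4 and rose by 1.25 (SE 0.09), and PPRC1 rose by 0.55 (SE 0.081). ESRRA, the estrogen-related receptor through which these coactivators act, was at 22.9 and 28.1 CPM in Scrambled and 71.1 and 55.0 CPM in shPIWIL4 and rose by 1.30 (SE 0.14). TFB2M, a mitochondrial transcription factor, rose by 0.49 (SE 0.10). NRF1, a factor long known to bind respiratory gene promoters, was at 25.9 and 25.5 CPM in Scrambled and 24.3 and 24.8 CPM in shPIWIL4 (-0.0639, edgeR adjusted p = 0.58), and GABPA at 49.3 and 55.9 CPM in Scrambled and 60.7 and 55.6 CPM in shPIWIL4 (0.14, edgeR adjusted p = 0.23). YY1 was the gene that fell, by 0.26 (SE 0.088, edgeR adjusted p = 0.031). It was not called without Scrambled library 1 or without Scrambled library 2, nor with no filter. With the replicate block it was not called either (edgeR adjusted p = 0.11).

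Complex I depends on iron-sulfur clusters, and 8 of 13 genes for their assembly rose and 0 fell, with a median log2 fold change of 0.42. Among all genes tested, 28.7% were called higher and 29.1% lower. With upper-quartile factors, 6 of the 13 rose and 1 fell, with a median of 0.30. ISCU, the scaffold on which clusters form, was at 32.7 and 30.5 CPM in Scrambled and 62.0 and 65.1 CPM in shPIWIL4 and rose by 1.01 (SE 0.088). BOLA3 and GLRX5, which act in later transfer of clusters, rose by 1.04 (SE 0.12) and 0.89 (SE 0.09), and the sulfur donor enzyme NFS1 by 0.68 (SE 0.10). The 5 not called were LYRM4, FDX1L, HSCB, IBA57 and NFU1. NFU1 was the lowest of the list, at 18.5 and 14.4 CPM in Scrambled and 12.7 and 16.8 CPM in shPIWIL4 (-0.15, SE 0.16, edgeR adjusted p = 0.44). NUBPL, the assembly factor that delivers clusters to complex I, was at 6.36 and 6.76 CPM in Scrambled and 7.38 and 7.50 CPM in shPIWIL4 (0.18, SE 0.12, edgeR adjusted p = 0.22).

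Promoter sequences, from 250 bases before to 50 bases from the start on, were matched by symbol in RefSeq (GRCh38.p14) for 39 of the 47 members. Coordinates are of that build, while the gene counts were made on hg19. The 4 members with the largest rises after NDUFB9 are printed to show the start regions of genes that moved together, and NDUFAF7, chosen after its values were seen, is printed as a gene that fell. Each is written 5′ to 3′ on the gene's strand, with capitals for every match to the motifs searched on both strands. These were CGCATGCG (the centre of the NRF1 motif), CCGGAAG (ETS factors such as GABPA), AAGATGGC (YY1), AAGGTCA (estrogen-related receptor half-site), CCAAT (NF-Y) and GGGCGG (Sp1).
NDUFB10 (chr16:1959288-1959587, plus strand): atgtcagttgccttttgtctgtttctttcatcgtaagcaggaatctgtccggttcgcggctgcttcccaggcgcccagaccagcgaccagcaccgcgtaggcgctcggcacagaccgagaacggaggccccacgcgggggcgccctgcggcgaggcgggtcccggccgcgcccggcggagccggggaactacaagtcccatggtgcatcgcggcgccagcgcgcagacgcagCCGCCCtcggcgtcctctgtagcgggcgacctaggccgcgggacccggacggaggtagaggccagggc
NDUFS6 (chr5:1801157-1801456, plus strand): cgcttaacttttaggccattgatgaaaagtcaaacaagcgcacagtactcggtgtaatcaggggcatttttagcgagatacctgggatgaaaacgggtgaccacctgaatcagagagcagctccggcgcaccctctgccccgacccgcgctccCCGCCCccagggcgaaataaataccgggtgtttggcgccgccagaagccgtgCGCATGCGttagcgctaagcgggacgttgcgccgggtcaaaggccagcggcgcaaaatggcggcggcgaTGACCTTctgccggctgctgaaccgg
NDUFA6 (chr22:42090723-42091022, minus strand): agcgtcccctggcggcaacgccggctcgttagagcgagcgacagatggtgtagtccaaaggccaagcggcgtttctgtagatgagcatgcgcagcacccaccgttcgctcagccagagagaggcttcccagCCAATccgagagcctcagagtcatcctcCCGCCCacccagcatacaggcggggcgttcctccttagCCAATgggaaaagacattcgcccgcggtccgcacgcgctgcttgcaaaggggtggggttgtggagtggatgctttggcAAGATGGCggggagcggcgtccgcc
NDUFS8 (chr11:68030431-68030730, plus strand): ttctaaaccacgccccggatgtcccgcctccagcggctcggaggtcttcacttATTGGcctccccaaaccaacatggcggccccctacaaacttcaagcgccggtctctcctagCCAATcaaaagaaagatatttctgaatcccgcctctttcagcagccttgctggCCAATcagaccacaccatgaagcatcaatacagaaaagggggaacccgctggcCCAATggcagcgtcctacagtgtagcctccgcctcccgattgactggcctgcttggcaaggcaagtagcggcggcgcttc
NDUFAF7 (chr2:37231408-37231707, plus strand): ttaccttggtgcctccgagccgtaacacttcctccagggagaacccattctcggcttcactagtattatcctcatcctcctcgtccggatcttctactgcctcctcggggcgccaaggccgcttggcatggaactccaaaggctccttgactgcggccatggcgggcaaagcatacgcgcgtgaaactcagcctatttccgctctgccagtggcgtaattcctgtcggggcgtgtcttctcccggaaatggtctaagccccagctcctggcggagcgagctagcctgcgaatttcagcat

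None of the 6 motifs was in all 4 windows of the genes that rose. NDUFB10 held the Sp1 motif on the other strand, and NDUFS6 held it too, with the NRF1 centre and, on the other strand, the estrogen-related receptor half-site. NDUFA6 held the NF-Y and YY1 motifs and, on the other strand, the Sp1 motif. NDUFS8 held only the NF-Y motif, on both strands, and NDUFAF7 held no match.

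Over the 39 members with a promoter, the NRF1 centre was found in 6 (15.4%), beside 2.46% of 27305 genes with a promoter. The longer form of this motif, with G before and C after it, was searched earlier and was found in 3 members (7.69%), beside 1.52% of all; the shorter form was chosen after that result was seen. The YY1 motif was found in 7 (17.9%, beside 3.52%), the estrogen-related receptor half-site in 4 (10.3%, beside 4.80%) and the ETS motif in 6 (15.4%, beside 12.2%). The common NF-Y and Sp1 motifs were in 11 (28.2%, beside 39.7%) and 25 (64.1%, beside 48.3%). The half-site was in NDUFA5, NDUFB4, NDUFS6 and NDUFS7, with log2 fold changes of 0.27, 0.29, 1.24 and 0.73, so it was in genes with small and with large differences. The 27305 genes were not limited to genes that passed the filter, while all 39 members did, so the 2 sets are unlike. A match is a description of letters in the window, not of binding.

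Some counts are uncertain for reasons of annotation. Of the 45 members in the RefSeq table, 21 have named pseudogenes, 69 in all, with 12 each for NDUFA5 and NDUFB4, 7 for NDUFS5 and 6 for NDUFA3, and reads from such copies cannot be told apart where sequences agree. The antisense gene NDUFB2-AS1 had 331 and 644 counts in Scrambled and 1023 and 797 in shPIWIL4, beside 1070 and 1865 counts against 3197 and 3367 for NDUFB2, and without a stated strand setting their reads cannot be told apart. NDUFV2-AS1 and NDUFA6-AS1 had at most 70 counts. Gene bodies of 20 members, NDUFB2 among them, overlap another gene in RefSeq, and the same limit holds for any reads they share. Among these are NDUFAF7 (with PRKD3), NDUFS6 (MRPL36), NDUFAF6 (CCNE2 and TP53INP1 among others), NDUFB11 (RBM10), NDUFC1 (NAA15) and NDUFA3 (TFPT). Whether the exons overlap was not examined.

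Single libraries decided the call of some members with small rises, besides NDUFA5. Without Scrambled library 2, NDUFA10, NDUFB4, NDUFS4 and NDUFS5 had log2 fold changes of 0.27, 0.28, 0.29 and 0.28 and were no longer called by edgeR. NDUFB4 and NDUFS4 also lost the call without Scrambled library 1 (0.33 and 0.36), and NDUFA11 lost it without shPIWIL4 library 1, as given above. Other settings ended further calls. Upper-quartile factors ended those of NDUFA10, NDUFA11, NDUFB4, NDUFC2, NDUFC2-KCTD14, NDUFS4, NDUFS5 and NDUFS7, and library totals and the stricter filter each ended those of NDUFA11, NDUFC2, NDUFC2-KCTD14 and NDUFS7. The length offset ended those of NDUFA11, NDUFA13, NDUFB7, NDUFS4, NDUFS5 and NDUFS7, and the length and GC offset those of NDUFB4, NDUFC2, NDUFS4 and NDUFS5. With no filter, NDUFA11, NDUFB7 and NDUFS7 were no longer called. Under the length and GC offset NDUFS4 was at 0.13 and NDUFB3, still called, at 0.27, and under the length offset NDUFA7 was at -0.045. Over the 14 alternatives, 34 of the 47 kept their call in every one that tested them.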

How the data were processed

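RNA-seq libraries of THP-1 cells were grouped by their titles, since the treatment label of the shPIWIL4 libraries also contains the word scrambled. STAR, featureCounts, DESeq2 and build hg19 are named in the submitters' processing notes; their versions, the annotation and the strand setting: not given in the sources used here. In each deposited table a gene has a raw count, an FPKM value and a TPM value, all made by the authors. The counts were tested here. The deposited FPKM values served to recover gene lengths, each at most 0.112 from a whole number, and the deposited TPM values to compare levels between genes. The deposited table of normalized values of the whole series was not used.

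The test was made in edgeR 4.0.16 (R 4.3.3): filterByExpr (minimum count 10, minimum total 15), TMM factors, and the robust quasi-likelihood F test of shPIWIL4 against Scrambled, with Benjamini-Hochberg adjustment over all 16108 genes tested and calls at an adjusted p under 0.05. Standard errors are the log2 fold change divided by the square root of F, 95% intervals are 1.96 standard errors to each side, and CPM values are scaled by TMM. Replicates differed by more than sampling noise (chi-square per gene 7.89 for Scrambled and 27.9 for shPIWIL4). GC content had a value for 22988 of 25680 genes; genes without one got no offset. The fit was tested on simulated data, where the share of false calls at the threshold was above the nominal level, so adjusted p-values near 0.05 may be too small. The alternatives were other scalings, DESeq2 1.42.0, other filters (the stricter one a mean of at least 5 CPM), a replicate block, a length offset and leaving out each library; the offset on length and GC and a crossed block were added after seeing the data.

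Members and lists were chosen with earlier results of these data known. Named in full are core subunits, the highest and lowest of each role, members that fell, and the NDUFA4 paralogs. From other lists, up to 4 called genes with the smallest p are named, and the extremes of some lists only. Those of complex III and the highest gene of complex V are left out. ECSIT, OXA1L, NUBPL, TFB2M, NRF1, GABPA, LDHA, LONP1, COX7A2 and other genes beyond this rule were chosen after their values were seen. Of the members, 1 stays in every fit, count and median but is not reported here by itself or drawn. Protein sequences were not used here.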

Additional observations from a re-analysis of the deposited data

How the results depend on the processing

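The number of complex I genes called higher was 34 to 45 and the number called lower 1 or 2 over the 14 alternatives, and no call was reversed in any of the 47 genes. With the stricter filter, which leaves out NDUFA4L2, 38 of 46 were higher and 1 lower. From 0.67, the members' median log2 fold change went to 0.55 with upper-quartile factors, 0.63 with library totals, 0.71 with no filter, 0.61 with the stricter filter, 0.56 with the length offset and 0.53 with the length and GC offset, and it was 0.60 to 0.71 when single libraries were left out; the cause was not tested. The counts higher were 39 with library totals, 41 with DESeq2, 40 with no filter, 37 with the length offset, and 39 to 43 without single libraries, where the lone library of a group is assumed to vary like the others. The replicate numbers in the titles are shared by the groups, but no label ties them to a common culture or day, and the deviations of same-numbered libraries had a correlation of -0.48 over all genes tested. With a replicate block, 39 complex I genes were higher and 2 lower, with NDUFA10, NDUFB4 and NDUFS4 among those that lost the call. With the numbers crossed as a block, 45 were higher and 2 lower. Among genes outside complex I, LONP1 and CEBPA changed sign with the length and GC offset and were then called, at 0.19 and 0.26. Only 2 libraries per group limit the precision, and NDUFA4L2, with 18 to 45 counts per library, has the least certain size of the 47.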
